A study of Mus musculus with 3 samples.

Results

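The 8 transcription factor genes *Pou4f1*, *Pou4f2*, *Pou4f3*, *Isl1*, *Isl2*, *Ebf1*, *Ebf3* and *Eomes* were followed across the cell types of 3 mouse single-cell RNA libraries. They were chosen by name and all 8 were present in each raw matrix, out of 18823 genes for the explants, 17851 for P0 and 17849 for P14, and 19946 genes in any of them. The explant library held 8 samples of CD1 wild-type retina, taken at E14 and cultured for 6 days on Nuclepore membranes with the Sstr2 agonist L-054,264 at 0, 5, 50 or 500 nM (2 samples per dose). The P0 and P14 libraries each held littermates of an *Sstr2* deletion series, em1(IMPC)Mbp, on C57BL/6NCrl outbred to CD1, with 1 wild-type, 2 heterozygous and 2 homozygous knockout samples. A sample is named here as an explant or as a retina, although how many eyes went into it is not given in the sources used here. The design asks how these genes differ between the ganglion cells of the P0 retina and those of the explants, and whether they move with the agonist or the deletion.

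Retinal ganglion cells (RGCs) are the output neurons of the retina and the first neurons that its progenitors make. Their program begins when the bHLH factor Atoh7 acts in neurogenic progenitors, and continues through the POU-domain factor Pou4f2 and the LIM-homeodomain factor Isl1, which act together on many ganglion cell genes. *Pou4f1* and *Pou4f3* (Brn3a and Brn3c) then divide the ganglion cells into subtypes with *Pou4f2* (Brn3b). *Isl2* marks ganglion cells with contralateral projections, *Ebf1* and *Ebf3* encode HLH factors of early neuronal differentiation, and *Eomes* (Tbr2) is required for the ganglion cells that express melanopsin. Several of the genes have other retinal uses: *Isl1* also acts in starburst (cholinergic) amacrine cells and ON bipolar cells, and *Eomes* is expressed in some amacrine cells.

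The promoters of *Pou4f1*, *Pou4f2* and *Isl1* are shown because the values below turn on these genes, of which the Pou4f genes stood higher and *Isl1* lower in P0 RGCs than in explant cells with the same name. Each sequence is the 250 bases before the RefSeq start in GRCm38.p6, 5′ to 3′ on the gene's strand, and capitals mark the E-box CANNTG, the motif that bHLH factors such as Atoh7, Neurog2 and Neurod1 bind.
Pou4f1, chr14:104468000-104468249, minus strand: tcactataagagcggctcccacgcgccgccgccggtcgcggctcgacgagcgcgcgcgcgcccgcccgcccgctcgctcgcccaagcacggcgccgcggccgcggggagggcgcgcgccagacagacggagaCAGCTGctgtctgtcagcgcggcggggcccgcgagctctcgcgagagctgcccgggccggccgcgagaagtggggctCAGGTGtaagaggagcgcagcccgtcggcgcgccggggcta
Pou4f2, chr8:78436648-78436897, minus strand: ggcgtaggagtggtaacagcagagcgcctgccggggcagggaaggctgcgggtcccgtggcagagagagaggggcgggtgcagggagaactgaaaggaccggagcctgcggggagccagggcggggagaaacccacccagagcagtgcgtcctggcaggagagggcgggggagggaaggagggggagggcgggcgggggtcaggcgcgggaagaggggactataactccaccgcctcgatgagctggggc
Isl1, chr13:116309689-116309938, minus strand: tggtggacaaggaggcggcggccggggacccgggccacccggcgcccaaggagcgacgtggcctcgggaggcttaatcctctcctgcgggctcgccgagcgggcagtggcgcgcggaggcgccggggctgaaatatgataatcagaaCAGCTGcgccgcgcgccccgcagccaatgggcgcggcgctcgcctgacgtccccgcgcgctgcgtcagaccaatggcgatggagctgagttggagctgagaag
The *Pou4f1* window held 2 E-boxes, at -118 (CAGCTG) and -41 (CAGGTG) from the start site, and the *Isl1* window held 1, at -103 (CAGCTG). The *Pou4f2* window held 0, as did those of *Isl2*, *Ebf3* and *Eomes*, and 1 of the 2 *Ebf1* windows held 1 (CAAGTG at -108). No window of *Pou4f3* was searched. The motif reads the same on both strands in its fixed letters, and 66.2% of 32841 promoters of this length held at least 1 and 31.8% at least 2. These matches are descriptions of letters in short windows and say nothing of binding.

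The genes lie on different chromosomes, with the exception of *Isl2* and *Eomes*, which are both on chromosome 9. In GRCm38 with GENCODE M21, *Pou4f1* spans chr14:104461676-104467999 on the minus strand, *Pou4f2* chr8:78433010-78436645 on the minus strand and *Pou4f3* chr18:42394539-42397249 on the plus strand. *Isl1* spans chr13:116298281-116309689 on the minus strand and *Isl2* chr9:55538672-55546180 on the plus strand. *Ebf1* spans chr11:44617317-45008091 on the plus strand, *Ebf3* chr7:137193673-137314445 on the minus strand and *Eomes* chr9:118478212-118486132 on the plus strand. *Isl2*, *Ebf1*, *Ebf3* and *Eomes* overlap 1 or 2 annotated genes on the opposite strand, and none of the 8 overlaps a gene on its own strand.

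The authors had pooled the samples of each library by MULTI-seq, in which lipid-bound oligonucleotides tag the cells of each sample before 10x Chromium 3′ capture. Values are raw UMIs (unique molecular identifiers, 1 per captured RNA molecule) summed over the cells of a type in a sample and scaled to the total of those sums (CPM, with the same total in every sum). Totals per sample ranged from 1281682 to 4237324 UMIs for explants, 8822880 to 10793649 at P0 and 1266730 to 5886669 at P14. The deposited cell types included RGCs for 200 of 5607 explant cells and 85 of 5706 P0 cells, and no RGC type among 3298 P14 cells. RGC sums ranged from 12913 to 206171 UMIs over 5 to 61 cells per explant, and from 296252 to 710743 UMIs over 12 to 26 cells per P0 retina. A P0 RGC held a median of 24853 UMIs and an explant cell named RGC a median of 3079.5. No explant cell exceeded 2499 genes, a number that each of the 85 P0 RGCs exceeded. Explants and P0 retinas were also separate libraries that differed in culture and strain, so library, depth, culture and strain cannot be told apart in any comparison of the 2. Cell barcodes shared between libraries numbered 4 to 9 per pair.

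*Sstr2*, the deleted gene, was counted in every P0 retina, with levels summed over the whole sample of 14.1 CPM in the wild type, 22.3 and 33.5 CPM in the heterozygotes, and 41.0 and 43.3 CPM where the label was knockout. At P14 it was at 0.340, 0.551 and 0, 0.329 and 4.30 CPM in the same order. The P0 values rose with the number of deleted alleles in the labels, opposite to a loss of counted RNA. Where the deletion lies relative to the counted 3′ end is not given in the sources used here, so the counts do not check the genotype, and the groups are called by their labels below.

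The label of the ganglion cells was checked against 30 genes listed as effectors of these cells (axon, synapse, RNA-binding, secreted-factor and other genes). In P0 RGCs 25 of the 29 measured were at their highest of any cell type, and 24 of 30 were in explant cells named RGCs. Their summed level was 19560 to 22000 CPM in P0 RGCs and 5886 to 10930 CPM in the explants. The 5 genes that most set P0 RGCs apart from all other cells were *Sncg*, *Nefl*, *Gap43*, *Snhg11* and *Ebf1*, with *Pou4f1* next. In the explants they were *Snhg11*, *Ebf1*, *Isl1*, *Pou4f1* and *Meg3*. The 6 markers of starburst amacrine cells summed to 3.98 to 10.1 CPM in P0 RGCs and to 317 to 800 CPM in the explant cells, where 5 of the 6 reached their highest level of any explant type. The 11 general amacrine markers summed to 11.2 to 300.1 CPM and 510 to 994 CPM, in the same order. Other lists were also higher in the explant cells. Horizontal cell markers summed to 51.0 to 129.5 CPM in P0 RGCs and 405 to 815 CPM in the explant cells. Neurogenic progenitor markers summed to 81.6 to 108 and 194 to 763 CPM, and photoreceptor markers to 6.70 to 20.25 and 49.4 to 417 CPM. For primary progenitor markers the ranges overlapped, at 29.0 to 126.6 and 105.6 to 495 CPM. Each of these lists was higher in another explant type. Markers of astrocytes and of vessels and blood were at 0 in explant cells named RGCs.

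At P0 the 3 Pou4f genes were close to restricted to RGCs, the Isl and Ebf genes were highest there, and *Eomes* was highest in amacrine cells. *Isl1*, *Isl2* and *Ebf1* also had a second site each. *Pou4f1* reached 697 ± 159 CPM (SD, n = 5) in P0 RGCs against 1.20 CPM or less in any other P0 type. *Pou4f2* reached 109 ± 43.1 CPM and outside RGCs was counted only in amacrine cells, with 3 UMIs in 1013 cells. *Pou4f3* reached 94.1 ± 19.95 CPM and had 0 UMIs in all other P0 types, where the counting limit of 3 UMIs was 0.112 to 0.548 CPM. For 7 of the 8 genes the lowest P0 RGC sample exceeded the highest sample of the next type, and *Eomes* was the exception. How many of all genes do so was not counted, so this does not set the members apart from other genes. Because the cell types were named from clusters of the same cells, these levels are descriptions, and no test was made between types.

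**Figure D1:**
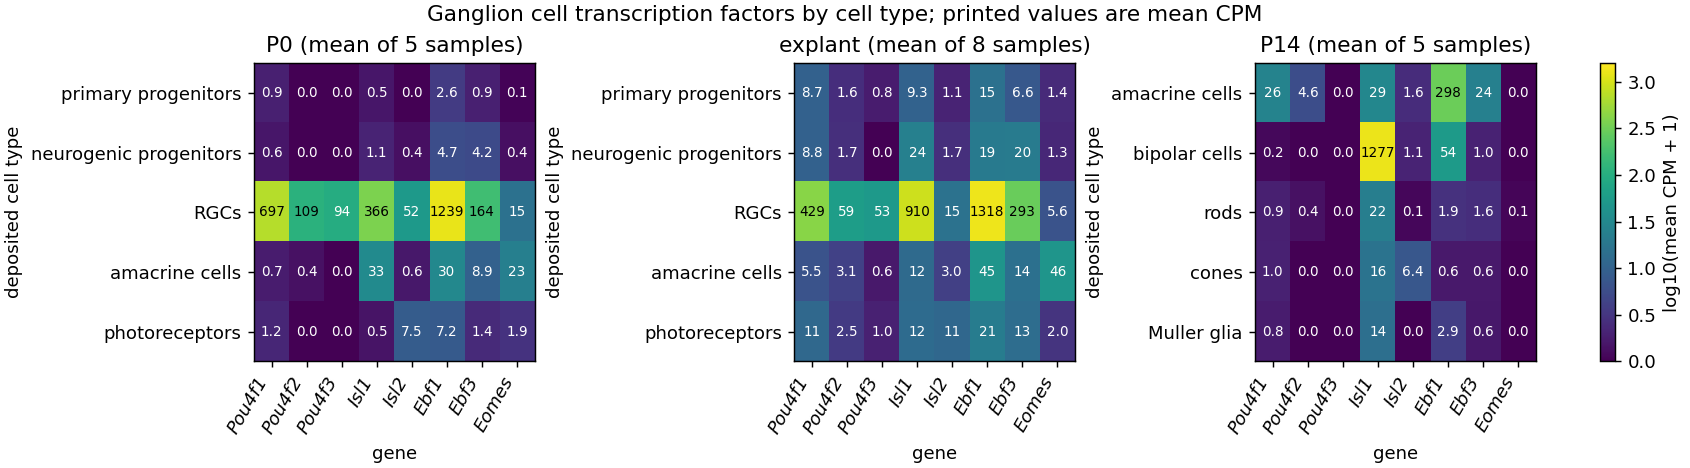
Mean CPM of the 8 genes in each deposited cell type of the P0, explant and P14 libraries, printed in each square and coloured by log10 of the mean CPM plus 1. The RGC rows of P0 and explants are highest for all genes but *Eomes*, and the P14 panel shows *Isl1* at 1277 CPM in bipolar cells.

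The second sites differed by gene. *Isl1* was second in P0 amacrine cells at 33.2 ± 18.6 CPM, above the range of every remaining P0 type, and 274 UMIs there came from 15 of 1013 cells. *Isl2* was second in P0 photoreceptors at 7.54 ± 3.25 CPM (2.84 to 11.7), with a UMI in 4.82% of cells against 0.494% in amacrine cells of greater median depth (4534.5 and 7332 UMIs). The same order held in the explants, where *Isl2* in photoreceptors (5.603 to 13.9 CPM) overlapped its level in cells named RGCs (0 to 35.7 CPM). *Ebf1* and *Ebf3* were second in P0 amacrine cells at 30.4 ± 19.3 and 8.89 ± 5.09 CPM, where 10.8% and 4.94% of cells held a UMI. *Eomes* was at 23.0 ± 6.74 CPM in P0 amacrine cells and 14.6 ± 20.3 CPM in P0 RGCs, and these ranges overlapped. In the explants *Eomes* was at 45.5 ± 16.4 CPM in amacrine cells (25.7 to 74.1) and 5.57 ± 8.94 CPM in cells named RGCs (0 to 24.7), with no overlap.

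In cells named RGCs, the 3 Pou4f genes were higher at P0 than in the explants, *Isl1* and *Ebf3* were lower, and *Ebf1* did not pass the test. Of 3696 genes tested, 2001 passed (54.1%), 1004 higher (27.2%) and 997 lower (27.0%) at P0. Of the 8 members 6 were tested, 3 were called higher and 2 lower, in a fit that called 54.1% of all genes, and DESeq2 also called 5 members. *Isl2* and *Eomes* had too few UMIs to be tested. The fit was repeated with every cell thinned to 2000 UMIs, where the 449 genes in both fits moved by a median of -0.482 on the log2 scale. *Isl1* then stood at -1.68 (adjusted p = 2.7e-10 by edgeR), *Pou4f1* at 0.23 (adjusted p = 0.373 by edgeR) and *Ebf1* at -0.71 (adjusted p = 3.63e-04 by edgeR), each to be read against that shift. Pooled thinned levels were 741 CPM at P0 and 408 CPM in the explants for *Pou4f1*, and 1282 and 1400 CPM for *Ebf1*. With wild-type and heterozygous retinas set against the 0 nM explants alone, *Pou4f1* (1.09) and *Isl1* (-1.18) were called. *Pou4f2* (0.87), *Pou4f3* (1.44) and *Ebf3* (-1.08) were not (adjusted p = 0.477, 0.326 and 0.0666 by edgeR), in a fit whose median over all genes moved by 0.362.

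*Pou4f1* measured 753, 922, 712, 579.7 and 516 CPM in the wild-type, 2 heterozygous and 2 knockout-labelled P0 retinas, and 247 to 616 CPM with a median of 416 over 8 explants. The 2 ranges overlapped between 516 and 616 CPM. The P0 mean was higher by 0.69 on the log2 scale (SE 0.15, adjusted p = 1.07e-04 by edgeR). *Pou4f2*, the first of the family to act in ganglion cells, measured 174, 105.5, 121.5, 60.5 and 82.6 CPM at P0 and 17.6 to 154.9 CPM with a median of 48.9 in the explants. The second 0 nM explant stood above 4 of the 5 retinas. The log2 difference was 0.84 (SE 0.31, adjusted p = 0.0198 by edgeR), and leaving out the wild-type retina took it to 0.59 (adjusted p = 0.0794 by edgeR). It also lost the call without the first 5 nM, the second 50 nM or the second 500 nM explant, at 0.64 to 0.72 (adjusted p = 0.0556 to 0.155 by edgeR). *Pou4f3* measured 111, 85.6, 101.3, 63.3 and 109.4 CPM at P0 and 23.1 to 88.0 CPM with a median of 53.8 in the explants. Its log2 difference was 0.83 (SE 0.28, adjusted p = 0.0102 by edgeR), with overlapping ranges, and without the second 5 nM explant it was 0.51 (adjusted p = 0.154).

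*Isl1*, the LIM-homeodomain partner of *Pou4f2*, went the other way. It measured 456, 424, 283.5, 302.5 and 362 CPM at P0 and 651 to 1225 CPM with a median of 890.0 in the explants. Every explant exceeded every P0 retina, and the share of all genes that separate in this way was not counted. The log2 difference was -1.21 (SE 0.15, adjusted p = 9.23e-11 by edgeR). *Isl2* measured 66.0, 49.8, 57.4, 33.8 and 53.6 CPM at P0, and in the explants it was at 0 in 4 of 8 and at most 35.7 CPM.

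Of the HLH factors, *Ebf1* measured 1722, 1075, 1283, 1065 and 1047 CPM at P0 and 601 to 2043 CPM with a median of 1316 in the explants. The groups overlapped, and the log2 difference of -0.11 had a 95% interval from -0.45 to 0.23 (adjusted p = 0.609 by edgeR). *Ebf3* measured 126, 195, 145, 232 and 120.6 CPM at P0 and 69.4 to 444 CPM with a median of 313 in the explants. It was lower at P0 by a log2 difference of -0.77 (SE 0.22, adjusted p = 0.00452 by edgeR), with overlapping ranges, and without the low-count filter it stood at -0.37 (adjusted p = 0.133 by edgeR), where the median of all genes had moved by 0.385. *Eomes* was at 0, 13.9, 0, 9.85 and 49.1 CPM at P0 and was at 0 in 5 of 8 explants, whose sums were of only 12913 to 81686 UMIs.

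**Figure D2:**
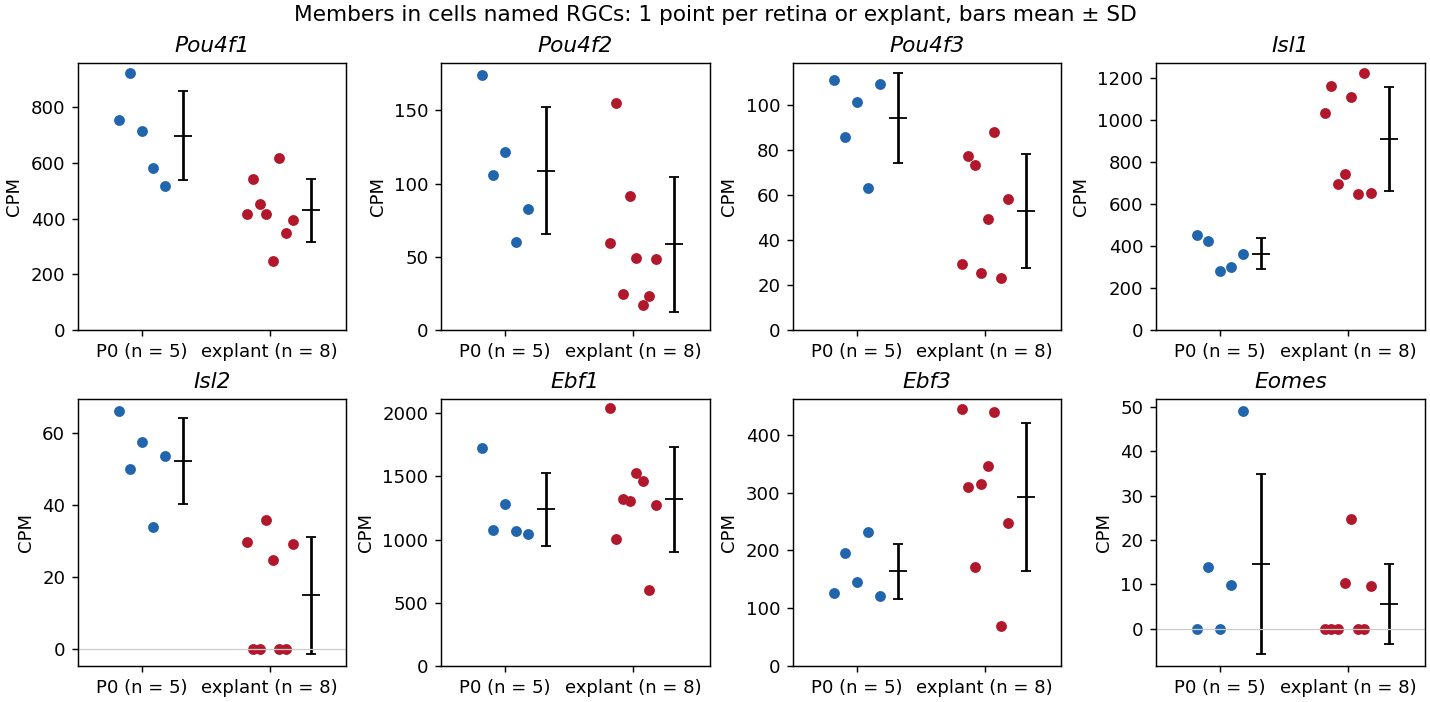
CPM of each gene in cells named RGCs, 1 point per P0 retina (n = 5) or explant (n = 8), with mean ± SD beside the points; each panel has its own scale. Among the genes shown, only *Isl1* has no overlap between the libraries, at 283.5 to 456 CPM in P0 retinas and 651 to 1225 CPM in explants. The share of all genes that separate in this way was not counted.

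The ratio of *Isl1* to *Pou4f1* within a sample separated the libraries, and how many other pairs of genes do so was not counted. It was 0.398 to 0.701 with a median of 0.522 at P0 and 1.06 to 4.50 with a median of 1.96 in the explants. Each ratio compares 2 genes of unknown capture efficiency, so its size has no meaning apart from the comparison between samples.

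At the level of single cells, *Isl1* without a Pou4f UMI was more frequent in the explants than at P0. All 85 P0 RGCs held a UMI of a Pou4f gene, 65 of them of at least 2 and 25 of all 3. In the explants 116 of 200 cells named RGCs held one, 35 held at least 2 and 1 held all 3. *Isl1* without a Pou4f UMI was found in 0 of 85 P0 RGCs, which allows a share of up to 3.53%, and in 69 of 200 explant cells (34.5%). Depth bears on these shares, so each cell was thinned to 2000 UMIs, which 195 explant cells and all 85 P0 cells reached. At this equal depth *Isl1* without a Pou4f UMI was found in 10 of 85 P0 RGCs (11.8%) and in 72 of 195 explant cells (36.9%). A Pou4f UMI was found in 64 of 85 (75.3%) and 98 of 195 (50.3%). Both were found in 25 (29.4%) and 47 (24.1%), and a Pou4f UMI without *Isl1* in 39 (45.9%) and 51 (26.2%).

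Shares of cells with a UMI were also taken gene by gene, and they did not follow the CPM for every gene. *Pou4f1* was detected in 94.1% of P0 RGCs and 48.5% of explant cells, or 69.4% and 43.1% after thinning. *Isl1* was detected in 82.4% and 66.5%, or 41.2% and 61.0% after thinning, so that its order turned at equal depth and matched that of its CPM. *Pou4f2* after thinning stood at 11.8% and 10.8% and *Pou4f3* at 11.8% and 8.72%, where a cell holds hardly more than 1 UMI of either and no order can be read. *Ebf1* was detected in all 85 P0 RGCs and in 69.0% of explant cells, or 87.1% and 66.2% after thinning. *Ebf3* stood at 30.6% and 32.8% after thinning. At least 2 of the 8 genes were found in 85 of 85 P0 RGCs and in 145 of 200 explant cells (72.5%), or in 88.2% and 66.2% after thinning.

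Within P0 RGCs the sets of cells with each gene overlapped. *Pou4f1* was counted in 80 of 85 cells, and all 41 cells with *Pou4f3* and all 35 with *Isl2* were among them. With *Pou4f1* in nearly every cell, most of this overlap is fixed in advance. After thinning *Pou4f1* was counted in 59 of 85 cells, in 6 of the 10 with *Pou4f3* and in 3 of the 4 with *Isl2*. *Ebf1* was counted in every cell. The 6 cells with *Eomes* all held *Pou4f2* and *Isl1*, 3 of them held *Pou4f1*, and 0 held *Pou4f3* or *Isl2*. With 6 cells these absences allow a wide range of true shares.

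The explant cells named RGCs were then divided by their own UMIs into sets chosen after the values were seen, and these sets are described without a test. The first set was the 116 cells with a Pou4f UMI, the second the 55 cells with a starburst-list UMI and no Pou4f UMI, and the third the 29 cells with neither. In the 116 cells *Pou4f1* was at 747 CPM, *Isl1* at 327, *Ebf1* at 1999 and *Ebf3* at 409.5 CPM. In the 55 cells *Isl1* was at 1788 CPM and was counted in 54 of them, while *Ebf1* and *Ebf3* were both at 24.0 CPM and *Isl2* and *Eomes* at 0. The 29 cells held 321 CPM *Isl1*, 1409 CPM *Ebf1* and 332 CPM *Ebf3*, nearer to the first set than to the second. Pou4f levels are not compared, since they defined the sets.

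Genes outside the 8 divided along the same line. The effector genes *Sncg* (gamma-synuclein), *Rbpms* (an RNA-binding protein of ganglion cells) and *Gap43* (axon growth) were at 460, 532 and 1936 CPM in the first set. In the second they were at 9.62, 28.8 and 81.7 CPM. *Tfap2b*, a transcription factor of amacrine cells, was at 106 CPM in the first set and 1106 CPM in the second. *Gad1* and *Slc32a1*, which make and load GABA, were at 7.98 and 5.32 CPM against 130 and 173 CPM. *Neurog2*, a proneural bHLH gene, was at 26.6 CPM against 750.0 CPM. The starburst genes *Sox2*, *Megf10* and *Slc18a3* helped to define the second set, where they were at 798, 308 and 240 CPM. Median depth differed little between the first 2 sets, at 3004 and 3334 UMIs per cell.

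**Figure D3:**
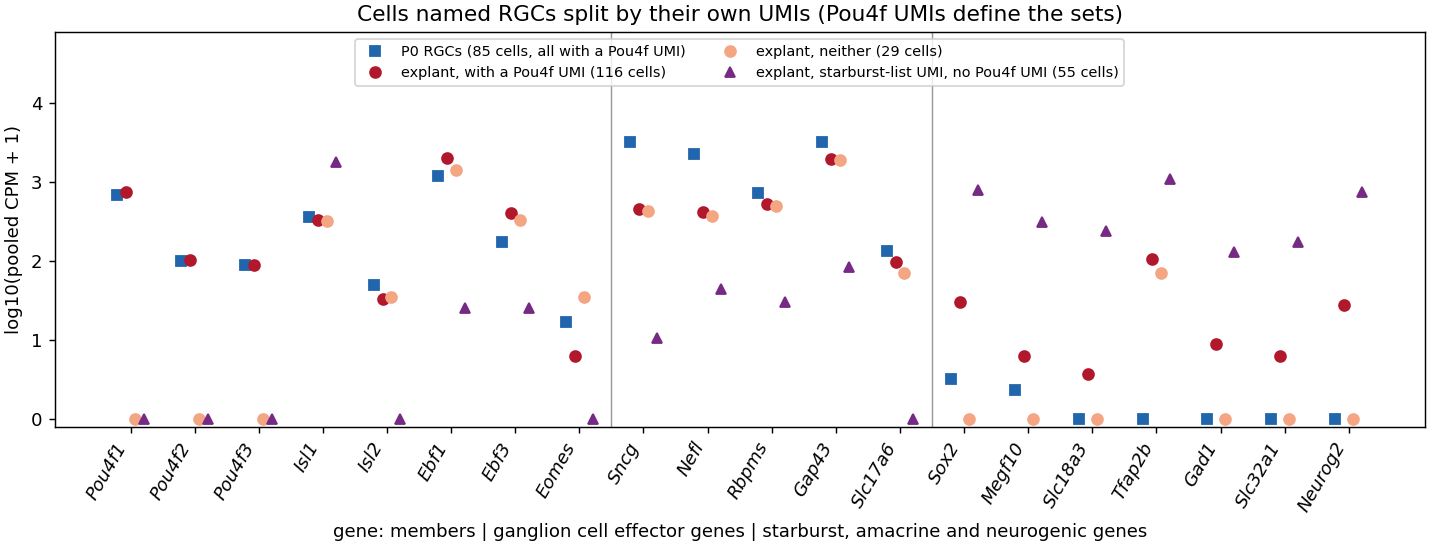
Pooled CPM (log10 of CPM plus 1) of the 8 genes, of ganglion cell effector genes and of starburst, amacrine and neurogenic genes in P0 RGCs and in 3 sets of explant cells named RGCs. The 55 cells with a starburst-list UMI and no Pou4f UMI have the highest *Isl1* (1788 CPM) and low *Ebf1*, *Sncg* and *Gap43*.

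Both sets occurred in every explant. Cells with a Pou4f UMI made up 46.2% to 70.6% of the cells named RGCs, and cells of the starburst-list set 17.6% to 45.5%. At P0, 9 of 85 RGCs held a starburst-list UMI and all 9 also held a Pou4f UMI. Leaving out all cells named RGCs with a starburst-list UMI, an alternative chosen after seeing the data, kept 132 explant and 76 P0 cells. Mean *Isl1* was then 315 ± 81.7 CPM in the explants (199 to 434) and 382 ± 89.6 CPM at P0 (277 to 469), so that the ranges that had been apart overlapped. Mean *Pou4f1* was 682 ± 224 CPM and 676 ± 154 CPM, *Pou4f2* 103 ± 98.1 and 96.1 ± 43.1 CPM, and *Pou4f3* 84.2 ± 41.2 and 89.8 ± 29.8 CPM. These 3 genes then lay well within each other's spread, but the explant spread rests on few UMIs. Their highest explant values, all in the second 0 nM explant, were 1152, 329 and 165 CPM, on 7, 2 and 1 UMIs in 3 cells. Equal levels cannot be read from this. *Ebf1* was 2131 ± 865 CPM in the explants and 1175 ± 156 CPM at P0, and *Ebf3* was 472 ± 232 and 155 ± 60.1 CPM. Of the 68 explant cells left out, 55 had no Pou4f UMI and 54 of these held *Isl1*, so the choice of cells itself fixes that the Pou4f means rise and that of *Isl1* falls. No test was made on the reduced sets, and the part of these cells in the differences between the libraries was not tested.

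At P0, cells with both *Isl1* and starburst markers were found under the amacrine name, and *Isl1* cells of the other P0 types were not searched marker by marker. The 15 P0 amacrine cells with an *Isl1* UMI held *Sox2* in 11 cells, *Megf10* in 10, *Slc18a3* (the vesicular acetylcholine transporter) in 9, *Fezf1* in 8 and *Chat*, the enzyme that makes acetylcholine, in 3. Of the other 998 P0 amacrine cells 115, 20, 2, 0 and 1 held them. *Tfap2b* was found in 86.7% and 72.3%. The *Isl1* cells had a median of 14570 UMIs and the others 7281. In explant amacrine cells no such division was seen: 63 cells with an *Isl1* UMI held *Sox2* in 9.52%, *Megf10* in 0 and *Slc18a3* in 0, against 10.1%, 0.611% and 0.306% of 1309 others, at 4904 and 4741 UMIs per cell.

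**Figure D4:**
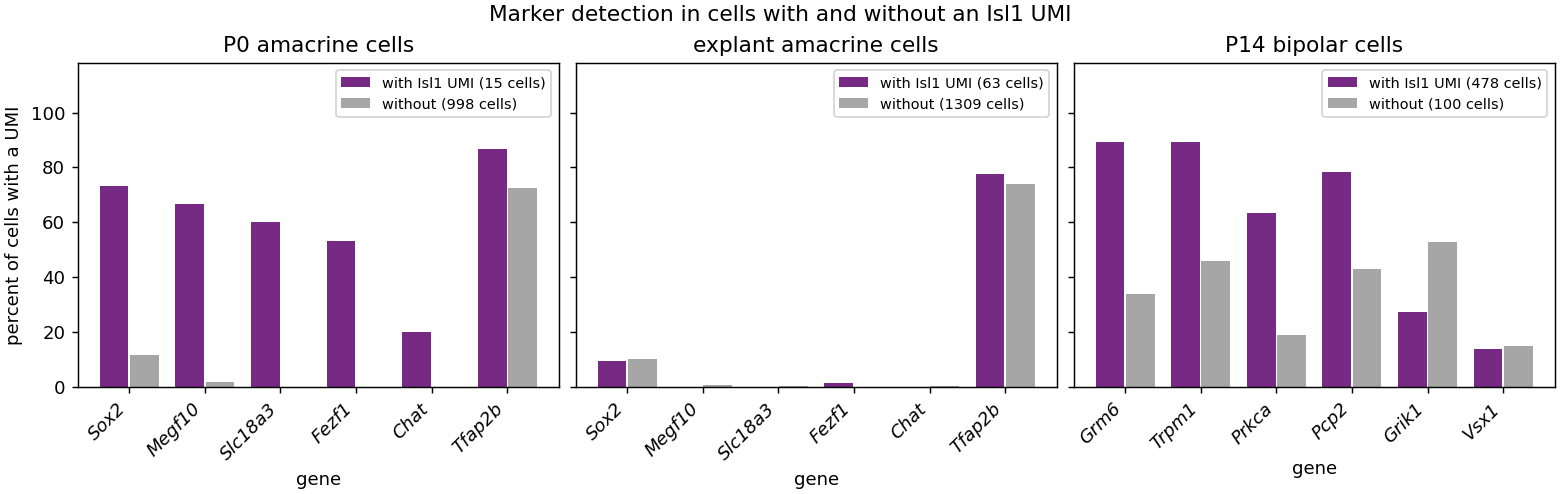
Percent of cells with a UMI of each marker among cells with and without an *Isl1* UMI, in P0 amacrine cells (15 and 998 cells), explant amacrine cells (63 and 1309) and P14 bipolar cells (478 and 100). Starburst markers accompany *Isl1* in P0 amacrine cells (*Slc18a3* 9 of 15 against 2 of 998 cells) but not in explant amacrine cells, and *Grm6* accompanies it in P14 bipolar cells (89.3% against 34.0%).

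The CPM of *Isl1* differed between the libraries in opposite directions under the 2 cell-type names. In amacrine cells 8088 genes were tested and 3065 passed (37.9%), and of 4 members tested 2 were called. *Isl1* measured 32.1, 11.9, 18.8, 56.2 and 46.8 CPM at P0 and 3.16 to 20.2 CPM with a median of 10.5 in the explants. The heterozygous retinas lay within the range of the explants, and the other 3 retinas lay above it. The log2 difference was 1.47 (SE 0.44, adjusted p = 0.0208 by edgeR), and without the first 0 nM explant it was 1.39 (adjusted p = 0.051). The log2 ratio of *Isl1* in cells named RGCs to *Isl1* in amacrine cells, with 1 CPM added to each, was 3.601 ± 1.01 (n = 5) at P0 and 6.30 ± 0.86 (n = 8) in the explants. These ratios differed by -2.695 (2-sided exact permutation test over samples, p = 0.00311). The test was made for *Isl1* only, on the values that had already shown the opposite directions, so its p adds no separate support. Which name the cells with *Isl1* and starburst markers received enters this ratio, and its part was not tested. The share of amacrine cells with an *Isl1* UMI was lower at P0, at 1.48% against 4.59% in the explants, or 1.09% against 1.55% after thinning. *Eomes* was lower at P0 in amacrine cells, at 11.48 to 27.9 CPM against 25.7 to 74.1 CPM (log2 difference -0.94, SE 0.28, adjusted p = 0.0156 by edgeR). *Ebf1* and *Ebf3* there had log2 differences of -0.64 and -0.65 that did not pass (adjusted p = 0.198 and 0.0953 by edgeR). *Ebf1* passed without the first heterozygote (-1.03, adjusted p = 0.00616 by edgeR) and *Ebf3* without the second (-0.95, adjusted p = 0.0165 by edgeR).

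In the remaining shared types the tested members were low at P0 and passed the low-count filter through the explants. That they were all lower at P0 follows from this filter, so the calls below describe levels only. Among primary progenitors 4644 of 9314 genes passed (49.9%), and all 4 members tested were called. *Pou4f1* was at 0.549 to 1.55 CPM at P0 and 5.49 to 13.1 CPM in the explants (log2 difference -3.00, SE 0.35, adjusted p = 1.13e-09 by edgeR). *Isl1* was at 0 to 0.915 against 3.39 to 16.1 CPM (-3.86, SE 0.41, adjusted p = 8.81e-11 by edgeR). *Ebf1* (-2.54) and *Ebf3* (-2.71) also had groups that did not overlap, and the share of all genes with such groups was not counted. In photoreceptors 3800 of 7879 genes passed (48.2%), and the single member tested, *Ebf1*, was at 5.05 to 11.4 against 13.1 to 35.8 CPM (-1.40, SE 0.25, adjusted p = 9.33e-06 by edgeR). In neurogenic progenitors, where 2251 of 6301 genes passed (35.7%, with 18.4% higher and 17.3% lower), no member reached the level needed for a test.

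For the Pou4f genes the explant types other than RGCs were alike. A Pou4f UMI was found in 4.08% to 4.55% of cells of each explant type other than RGCs, and at least 2 in 0.180% to 0.293%. At P0 the corresponding shares were 0.448% to 0.790% and 0 to 0.175%, although P0 cells were deeper. Free RNA in droplets gives all types a like, low share, and its part in the differences in progenitors and photoreceptors was not tested. It was 58.0% in explant cells named RGCs, far above that level. Other members differed more between explant types. *Isl1* was at 24.1 ± 14.4 CPM in neurogenic progenitors, where 7.18% of cells held a UMI, against 9.27 ± 4.59 CPM and 3.84% in primary progenitors of like depth (4526.5 and 4548 UMIs). *Ebf3* was at 20.2 ± 11.5 CPM and 7.92% of cells in the former and 6.56 ± 3.07 CPM and 3.08% in the latter, and *Isl2* was at 1.09 ± 1.01 CPM in primary progenitors against 10.6 ± 3.14 CPM in photoreceptors.

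The other transcription factors of the ganglion cell program and its effector genes were counted in the same fit of cells named RGCs. Of 38 network factors 20 were tested, 6 were called higher and 10 lower at P0, and 4 did not pass, against 27.2% higher and 27.0% lower over all genes of that fit. Their median log2 difference was -0.46 against 0.02 over all genes. The largest called difference was in *Neurog2*, which was at 0 in all 5 P0 retinas and at 296.5 ± 205 CPM in the explants. It passed the low-count filter through the explants alone. Pooled *Neurog2* was at 26.6 CPM in the 116 explant cells with a Pou4f UMI and at 0 in the 29 with neither. In the 55 with a starburst-list UMI and no Pou4f UMI it was at 750 CPM. *Neurod1*, a bHLH factor of differentiating neurons, was at 45.6 ± 20.8 and 279 ± 102 CPM (log2 difference -2.67, SE 0.23). *Onecut2* (-1.33) and the zinc-finger gene *Myt1* (-1.23) were also lower. *Tshz2* was higher at P0, at 116 ± 37.8 against 29.9 ± 29.5 CPM (2.11, SE 0.34), as were the Iroquois genes *Irx4* (1.83) and *Irx2* (1.44) and the LIM-only gene *Lmo4* (1.35). Their adjusted p ran from 1.17e-15 for *Neurod1* to 0.00129 for *Lmo4*.

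Of 30 effector genes 19 were tested, 13 were called higher and 2 lower at P0 (27.2% and 27.0% over all genes), and 4 did not pass, with a median log2 difference of 0.98. *Sncg* was at 3208 ± 239.5 CPM at P0 and 324 ± 241 CPM in the explants (3.24, SE 0.28, adjusted p = 6.4e-09 by edgeR). The light neurofilament gene *Nefl* was at 2325 ± 473.5 against 261 ± 61.3 CPM (3.01, SE 0.18, adjusted p = 2.91e-25 by edgeR). *Nrn1* (2.07), *Nefm* (1.38), *Gap43* (1.25), *Stmn3* (1.14), *Slc17a6*, the vesicular glutamate transporter of these cells (1.08), and *Stmn2* (1.07) followed. The 3 starburst markers tested passed the low-count filter through the explants, since the whole list summed to at most 10.1 CPM in P0 RGCs. That all 3 were lower at P0, with a median log2 difference of -6.68, follows from this. In the 116 explant cells with a Pou4f UMI alone, *Sncg* and *Nefl* stood at 460 and 423 CPM, against 3188 and 2285 CPM over all P0 RGCs. Other effector genes lay nearer to their P0 level there. *Gap43* stood at 1936 against 3251 CPM, *Rbpms* at 532 against 726.5, *Slc17a6* at 95.7 against 134.5 and *Thy1* at 69.1 against 96.5 CPM.

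Within the P0 library, the genes whose levels most resembled each member were sought over 25 sums of a sample and a type. For *Pou4f1* they were *Nrn1* (r = 0.994), *Pou4f3* (0.992) and *Mstn* (0.991), and for *Pou4f2* they were *D130079A08Rik*, *Mstn* and *Nrn1* (0.993 to 0.994). *Pou4f3* was most like *Nrn1* (0.995), *Isl1* like *Ywhag* (0.983), *Ebf1* like *Gap43* (0.980) and *Ebf3* like *Sptbn1* (0.968). *Eomes* was most like the calcium channel subunit gene *Cacng3*, with r = 0.908. These are Pearson correlations of log2(CPM + 1) among 10681 genes, the points share retinas and library, and no p is given.

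The knockout-labelled P0 retinas were compared with the wild type, which was 1 retina with 13 RGCs. In RGCs 35 of 6994 genes passed (0.5%), 2 of the 8 members among them. *Pou4f2* was at 60.5 and 82.6 CPM in the knockout-labelled retinas, 174 in the wild type and 105.5 and 121.5 in the heterozygotes. Groups this small can separate through the spread between retinas alone, and how many of all genes do so was not counted. The 3 groups did not overlap, with a log2 difference from wild type of -1.36 (SE 0.29, adjusted p = 0.00162 by edgeR). *Ebf1* was at 1065 and 1047 CPM against 1722 in the wild type and 1075 and 1283 in the heterozygotes (-0.75, SE 0.14, adjusted p = 8.15e-05 by edgeR). Against the heterozygotes neither passed (-0.68, adjusted p = 0.384, and -0.15, adjusted p = 0.976), while *Pou4f1* did (-0.58, adjusted p = 0.00608 by edgeR). *Pou4f1* against the wild type was -0.50 (SE 0.16, adjusted p = 0.184 by edgeR). DESeq2 called neither gene (adjusted p = 1.00 for *Pou4f2* and 0.0924 for *Ebf1*). Leaving out the first knockout-labelled retina lost the call of *Pou4f2* (-1.12, adjusted p = 0.16), and leaving out the second lost that of *Ebf1* (-0.74, adjusted p = 0.067 by edgeR) and left 15 genes called. Given the *Sstr2* counts, the direction rests on the labels alone.

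The other members in P0 RGCs did not pass against the wild type. *Isl1* had a log2 difference of -0.52 (adjusted p = 0.324 by edgeR), *Isl2* -0.70 (0.813), *Pou4f3* -0.47 (0.857) and *Ebf3* 0.48 (0.738). *Eomes* was counted with 7 and 22 UMIs in the knockout-labelled retinas, in 2 and 3 cells, with 7 UMIs in 1 cell of the first heterozygote and 0 in the other and in the wild type (adjusted p = 0.18 by edgeR). Of the 26 network factors tested there 1 was lower and 0 higher, and the same counts held for the 26 effector genes tested. In P0 amacrine cells 3 of 10373 genes passed (0.0289%) and 0 of 4 members. *Isl1* was at 56.2 and 46.8 CPM in knockout-labelled retinas, 32.1 in the wild type and 11.9 and 18.8 in the heterozygotes. It differed from the heterozygotes by 1.72 (adjusted p = 0.00143 by edgeR), in a fit that called 7 of 10373 genes. From the wild type it differed by 0.69, which did not pass. The 274 *Isl1* UMIs of P0 amacrine cells came from 15 of 1013 cells, so the level of each retina rests on few cells. In P0 neurogenic progenitors 5 of 8984 genes passed (0.0557%) and no member could be tested.

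The agonist moved no member past the threshold. In explant cells named RGCs 1 of 1056 genes passed at 500 nM against 0 nM (0.0947%) and 0 of 4 members tested, by edgeR and by DESeq2. *Pou4f1* was at 347 and 393 CPM at 500 nM and 414.5 and 542 at 0 nM (log2 difference -0.31, 95% interval -1.14 to 0.53). *Isl1* was at 1225 and 655 against 1036 and 1162 CPM (-0.39, -1.08 to 0.30). *Ebf1* was at 601 and 1271 against 2043 and 1007 CPM (-0.76, unadjusted p = 0.0263, adjusted p = 0.544 by edgeR), and without the first 0 nM explant its sign turned to 0.13. *Ebf3* was at 69.4 and 247 against 444 and 310 CPM (-1.02, unadjusted p = 0.0285, adjusted p = 0.544 by edgeR). The 0 nM explants held 11 and 5 cells named RGCs and the 500 nM explants 10 and 58.

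**Figure D5:**
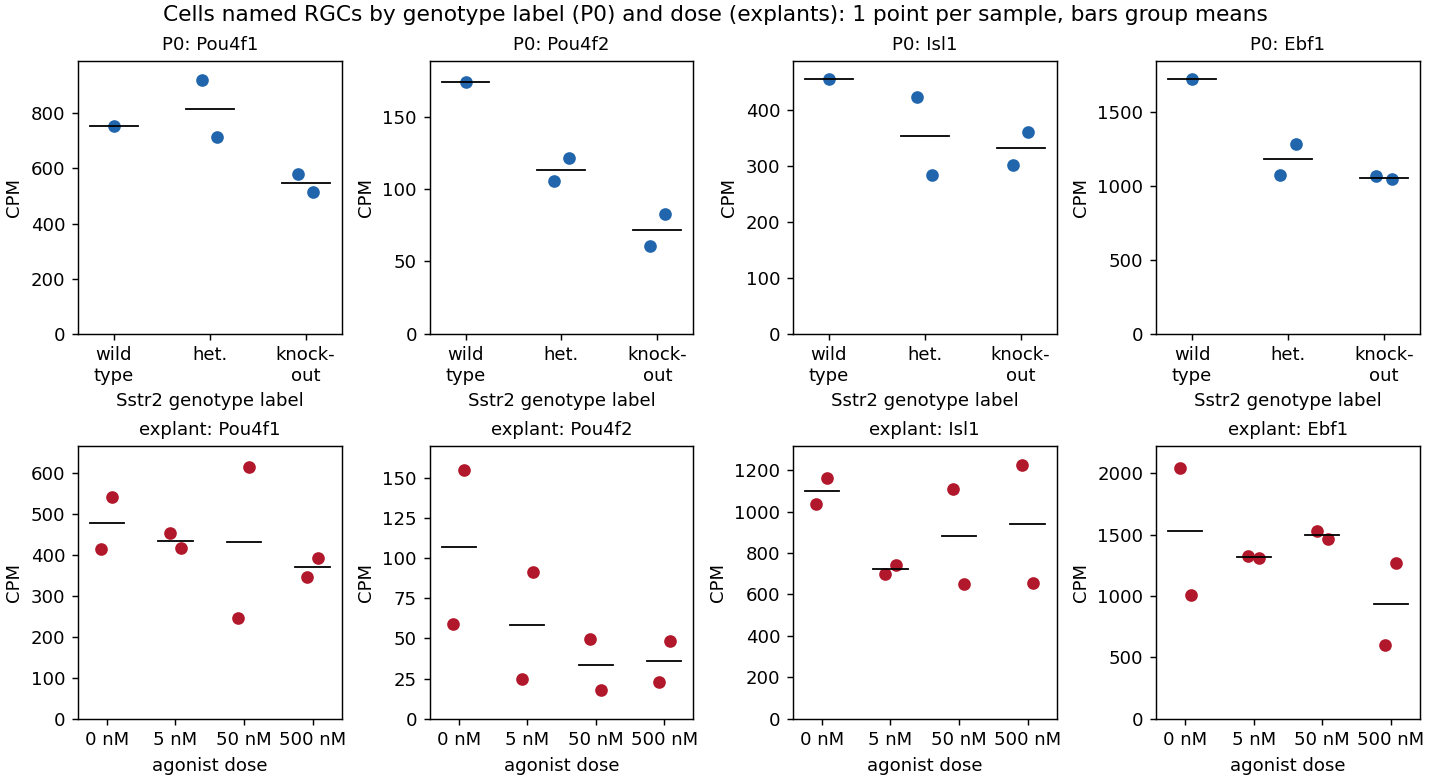
CPM of *Pou4f1*, *Pou4f2*, *Isl1* and *Ebf1* in cells named RGCs by *Sstr2* genotype label at P0 (top) and by agonist dose in explants (bottom), 1 point per sample with group means as bars. The knockout-labelled retinas lie lowest for *Pou4f2* (60.5 and 82.6 CPM), and no dose stands apart for *Isl1*.

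In explant amacrine cells 15 of 8188 genes passed (0.183%) and 0 of 4 members. *Isl1* was at 19.3 and 20.2 CPM at 500 nM and 10.1 and 5.16 at 0 nM (log2 difference 1.17, SE 0.46, unadjusted p = 0.0138, adjusted p = 0.833 by edgeR). In neurogenic progenitors, where 4 of 6072 genes passed (0.0659%), *Isl1* was at 26.1 and 44.3 against 13.9 and 17.2 CPM (1.22, unadjusted p = 0.0181, adjusted p = 0.845 by edgeR). In both types the 2 treated explants lay above the 2 untreated ones, and neither difference passed over all genes. Both types come from the same explants. Groups this small can separate through the spread between explants alone, and the share of all genes that do so was not counted.

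At P14 no RGC type was named, and *Isl1* was highest in bipolar cells. It measured 1203 CPM in the wild type, 1270 and 1395 in the heterozygotes and 1093 and 1424 in the knockout-labelled retinas, with a UMI in 478 of 578 bipolar cells (82.7%) against 159 of 2271 rods. The groups overlapped (log2 difference 0.09, 95% interval -0.65 to 0.83). In bipolar cells 7 of 8787 genes passed (0.0797%) and 0 of 2 members. Cells with an *Isl1* UMI held *Grm6* and *Trpm1*, genes of the ON bipolar response, in 89.3% and 89.1%, against 34.0% and 46.0% of the 100 cells without. *Grik1*, a kainate receptor gene of OFF bipolar cells, was found in 27.4% against 53.0%, and *Ebf1* in 2.93% against 15.0%. The cells with *Isl1* were also deeper, at 4738 against 2471 UMIs, and *Grik1*, *Ebf1* and *Vsx1* (13.8% against 15.0%) were the genes of the 8 examined that were not more frequent in them.

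Pou4f UMIs at P14 were concentrated in 4 of 68 amacrine cells, 2 in the wild type and 1 each in a heterozygous and a knockout-labelled retina. These 4 cells held 23 UMIs of *Pou4f1*, 6 of *Pou4f2*, 42 of *Ebf1*, 26 of *Rbpms*, 135 of *Nefl*, 35 of *Thy1* and 20 of *Slc17a6*, and 0 of *Tfap2b*, *Gad1* or *Slc6a9*. The other 64 amacrine cells held 0 UMIs of *Rbpms*, 127 of *Ebf1*, 225 of *Nefl*, 16 of *Thy1* and 12 of *Slc17a6*. They also held 822 UMIs of *Tfap2b*, 135 of *Gad1* and 53 of *Slc6a9*. The 4 cells were chosen by their Pou4f UMIs and were deeper, at a median of 10600 against 4486 UMIs. In the remaining P14 types 0.173% to 1.74% of cells held a Pou4f UMI and 0 held 2. *Ebf1* was at 298 ± 245 CPM in P14 amacrine cells, from 90.2 to 707 CPM over retinas with 4 to 23 such cells, and was counted in 27.9% of them. *Isl2* was at 6.45 ± 4.23 CPM in cones and 0.138 CPM in rods. In P14 amacrine cells 0 of 4715 genes passed (0.0%) by edgeR and by DESeq2, and 88 and 24 genes had an unadjusted p under 0.05.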

How the data were processed

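The deposited UMI counts are raw, not normalized: per the labels and the study's methods the authors made 10x Chromium 3′ v3.0 libraries, aligned reads to mm10 with Cell Ranger 3.1.0, assigned cells to samples by MULTI-seq barcodes and named cell types by cluster in Seurat 3. The deposited natural log values (1 plus the SCTransform-corrected count, by the authors) served as an alternative only. Filters on cells and doublet treatment are not given in the sources used here, and no doublet caller was run. Counts were summed per sample and deposited cell type (at least 3 cells) and tested with edgeR 4.0.16 (quasi-likelihood, TMM, low-count filter, Benjamini-Hochberg over all genes tested) in R 4.3.3, with DESeq2 1.42.0 as an alternative, after tests on simulated data. A call is an adjusted p under 0.05, and 95% intervals are 1.96 SE. Genotype and dose fits held all groups of a library. The wild type is 1 sample and adds nothing to the spread. The p-values measure the spread between these samples, part of which may be technical. Limits from counts of 0 use 3 counts and cover counting error only. Thinning drew 2000 UMIs per cell. Named genes were all 8 members, up to 8 called genes of the network and effector lists by size of difference, the genes most like each member with at least 200 UMIs, and 5 leading genes of cells named RGCs. Members, lists and tests were chosen with earlier results of these data known. Python 3.11.15, numpy 2.4.6, scipy 1.17.1, pandas 2.3.3 and matplotlib 3.10.9 were used.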

Additional observations from a re-analysis of the deposited data

Results flagged for a closer look

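*Eomes* was unusual in RGCs of the second knockout-labelled P0 retina, which at 49.13 CPM lay far from the other 4 retinas (0 to 13.9 CPM), on 22 UMIs in 3 cells. It also stood apart in cells named RGCs of the first 50 nM explant, at 24.68 CPM against 0 to 10.2 CPM in the others, but this value is 1 UMI in 1 cell, and 2 deeper explants held 2 UMIs each. These were the values of 21 groups examined in which 1 sample lay far from the rest, and chance alone produces such cases in some groups. The difference of *Isl1* between P0 and explants was not the same in cells named RGCs and in amacrine cells, with a log2 difference between the ratios of -2.695 (exact permutation test over samples, p = 0.00311). Only *Isl1* was tested in this way, on values that had already shown opposite directions, so the p adds no separate support. Which cells received each name enters this difference, and its part was not tested.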

How the results depend on the processing

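The main limits were the depth of the explant cells, few cells named RGCs in several explants and 1 wild-type sample. Of 167 alternative values of the members' log2 differences with no sample left out, 146 kept direction and call, 9 lost the call, 4 gained it and 8 changed sign. Between P0 and explant cells named RGCs 5 of 6 members tested were called, and 4 to 5 when a sample was left out. After thinning to 2000 UMIs 2 of 3 tested were called, *Isl1* and *Ebf1*, of which *Ebf1* was not among the 5. With wild-type and heterozygous retinas set against explants at 0 nM, 2 of 7 tested were called. All genes called numbered 2001 of 3696, with 3258 of 14978 without the low-count filter and 248 of 449 after thinning. For the restricted samples they numbered 509 of 4887, and 1396 to 2018 with a sample left out. The median log2 difference of all genes moved by 0.385 without the filter, by -0.482 after thinning and by 0.362 for the restricted samples, so single values moved with it. *Ebf1* became 0.31 without the filter. In the other shared types a member was counted once per type. Such calls numbered 7, with 25 without the filter, 2 after thinning and 4 to 10 with a sample left out (4 without the second 5 nM or the second 500 nM explant, 10 without either heterozygote). Without the filter 6 of 8 members tested were called in amacrine cells (3772 of 16677 genes) and 5 of 7 in neurogenic progenitors (2872 of 15822). In primary progenitors 8 of 8 were called (5552 of 16949 genes) and in photoreceptors 6 of 8 (5112 of 16384). After thinning, members reached a test in amacrine cells only. Genes called after thinning fell short of the full counts in amacrine cells (1437 for 3065), neurogenic progenitors (971 for 2251), primary progenitors (2702 for 4644) and photoreceptors (1964 for 3800).

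For the agonist, *Pou4f1* and *Isl1* in cells named RGCs became 0.11 and 0.024 without the filter. With an explant left out, *Isl1* ranged from -0.61 to 0.066 and *Ebf1* from -1.58 to 0.13 there, *Ebf1* from -0.45 to 0.67 and *Eomes* from -0.42 to 0.86 in amacrine cells, and *Ebf1* from -0.40 to 1.49 in neurogenic progenitors. Genes called were 15 in amacrine cells (DESeq2 1, no filter 29), 4 in neurogenic progenitors (0 and 7) and 1 in cells named RGCs (0 by DESeq2). For the genotype labels at P0, 2 members were called, 0 by DESeq2 and 1 to 2 with a retina left out (1 without either knockout-labelled one), among 35 genes in RGCs (DESeq2 4). In amacrine cells 3 genes were called (DESeq2 1, no filter 29, 7 against heterozygotes, 7 to 62 with a retina left out) and in neurogenic progenitors 5 (3, 24, 0, and 4 to 38). Against the heterozygotes *Ebf1*, *Ebf3* and *Eomes* in amacrine cells became -0.89, -0.91 and -0.04. With a retina left out *Ebf3* in RGCs ranged from -0.11 to 0.84 and *Ebf1* in amacrine cells from -0.65 to 0.87. At P14 *Pou4f1* in amacrine cells became 1.61 and *Isl1* in bipolar cells -0.075 against heterozygotes. With a retina left out they ranged from -0.061 to 0.115 and from -0.10 to 0.26, and *Ebf1* in bipolar cells from -0.49 to 0.74. Genes called there were 7 (DESeq2 1, 7 to 19 with a retina left out).

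Mean levels in P0 RGCs from the corrected counts were 1063 CPM for *Pou4f1*, 134.7 for *Pou4f3*, 530.3 for *Isl1*, 66.2 for *Isl2*, 1886 for *Ebf1* and 245.0 for *Ebf3*, and *Isl2* was 33.6 CPM after thinning, when 88.2% of P0 RGCs held at least 2 members. Without cells holding a starburst-list UMI, explant means were 682 CPM for *Pou4f1*, 84.2 for *Pou4f3*, 315.0 for *Isl1*, 2131 for *Ebf1* and 472 for *Ebf3*. The cause of these changes was not tested. No dose fit of cells named RGCs with at least 10 cells per explant was run, since 1 explant at 0 nM would remain, nor one without the wild-type retina. No paired analysis was possible because the labels give no replicate numbers shared between groups.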
